A study of Rattus norvegicus with 3 samples.

Results

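The enzymes that take glucose to pyruvate and lactate, and those that burn pyruvate in the citrate cycle, were followed in RNA from the acellular supernatant of rat spinal cord. The list holds 43 genes chosen by name from these pathways, and 41 of them have an entry among the 12771 entries (12758 gene symbols) of the authors' table. HK1, the main hexokinase of brain, and ALDOC, the aldolase of astrocytes, have no entry, under these symbols or under a synonym, and nothing can be said of their levels here. The vertebral lamina at T9 was removed in female Sprague Dawley rats aged 3 months. In SCI animals the exposed cord was then bruised with an impactor, and in No-SCI animals it was not. After 24 h about 2 mm of cord just above the injury, at T8, was digested in the cold with a bacterial protease, cells were pelleted, and total RNA of the supernatant was sequenced after removal of ribosomal RNA. Both groups thus share the laminectomy, the digestion and the spin. By the labels, No-SCI has 2 libraries and SCI has 1, although the methods speak of 2 animals for each condition.

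All values are FPKM (fragments of a transcript, scaled by its length and by sequencing depth), 1 group estimate of the authors for No-SCI and 1 for SCI. The lowest value among all entries is exactly 1. Whether the authors added 1 to each value is not stated in the sources used here and was not tested. Values near 1, and ratios made from them, are therefore uncertain. The table used here gives no value of a single library and no read count behind a value, so the variation from animal to animal cannot be read from it. By the methods, every sample was downsampled to the same number of reads. There are therefore no replicates to set against a difference, and no test is given. Every ratio below describes these libraries. The median log2 ratio of SCI to No-SCI over all entries was −0.12, and 90% of the entries lay between −1.39 and 1.28. The supernatant is a mixture, and in such a bulk sample fewer fragments of a cell type and less RNA in each fragment cannot be told apart. As to the labelled tissue, the axonal neurofilament gene NEFL had 78.1 FPKM in No-SCI, while GFAP, AQP4, MBP, SNAP25 and NEFM have no entry.

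Glycolysis splits glucose into pyruvate in the cytosol. Phosphofructokinase is its main point of control, and the bifunctional PFKFB enzymes set the level of the sugar phosphate that activates it. Pyruvate is either reduced to lactate by lactate dehydrogenase or taken into mitochondria, where the pyruvate dehydrogenase complex feeds it to the citrate cycle and pyruvate carboxylase refills the cycle. In nervous tissue, astrocytes and oligodendrocytes are known to release lactate that neurons and their axons can oxidize. Pyruvate carboxylase is known in brain as an astrocyte enzyme.

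Enzyme transcripts were abundant in the supernatant. Of the 41 members, 37 lay above the median of all entries in No-SCI (17.2 FPKM) and 34 above that of SCI (15.6 FPKM). In No-SCI 13 members were among the highest 10% of entries and 4 among the highest 1%. Together the members made up 1.37% of the summed FPKM of all entries in No-SCI and 1.305% in SCI. Their values ran from 3.90 FPKM for HK2 in SCI to 3846 FPKM for ENO1 in No-SCI. The glycolysis chain stood at a higher level than the citrate cycle, with a median of 402 FPKM over 13 genes against 104 FPKM over 11 genes in No-SCI. In SCI the medians were 296 and 63.5 FPKM. With the absent HK1 and ALDOC counted at 0, the No-SCI median of the glycolysis chain would be 78.9 FPKM, below that of the cycle, so the order of the pathways rests on how these genes are treated.

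Most members were lower in SCI. Of the 41, 33 (80.5%) were lower and 8 higher by any amount, where 56.3% of all entries were lower. Their median log2 ratio was −0.38. At least 2-fold lower were 9 members (22.0%), beside 12.1% of all entries, and these were PC, PFKM, PFKFB3, PFKP, OGDH, PDK2, PFKFB2, ME1 and IDH1. At least 2-fold higher was 1 member (2.44%), LDHA, beside 7.96% of all entries. With a 1.5-fold minimum 15 members were lower, where 26.3% of the entries were, and with the study's minimum of 1.3-fold 21 were lower, where 35.7% were. LDHA stayed the only higher member at both minima, where 16.9% and 24.6% of the entries were higher. Centring the median of all entries at 0 adds 0.12 to every log2 ratio, which leaves these 9 genes and LDHA past the 2-fold minimum and turns ALDOA, GAPDH, ENO1, PKM and FH to slightly higher.

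**Figure D1:**
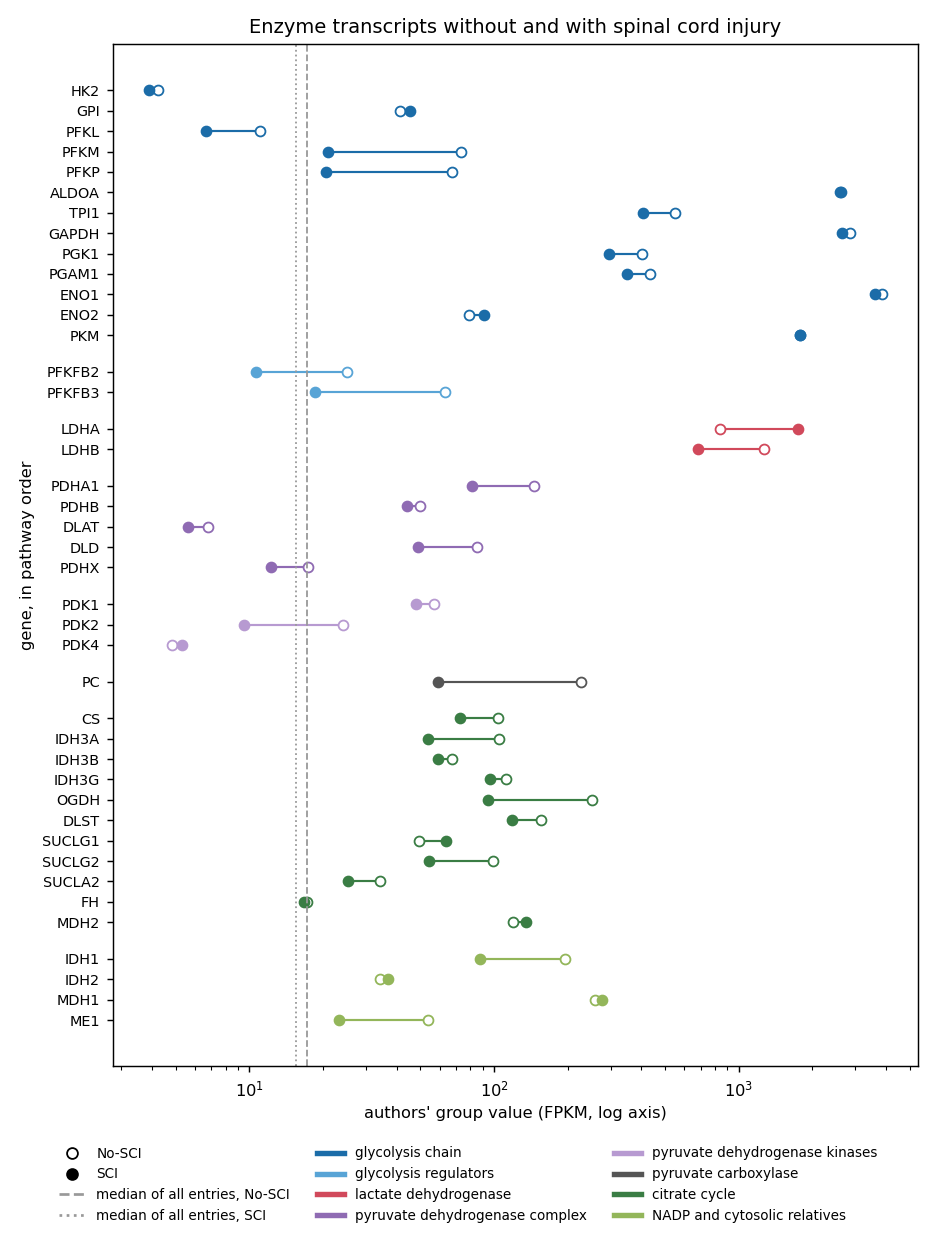
Authors' FPKM values of the 41 members (log axis) in No-SCI (open circles) and SCI (filled circles), in pathway order and coloured by role, with the median of all entries as vertical lines. PC, PFKM, PFKFB3, PFKP and OGDH show the widest gaps to the left, LDHA the widest to the right, while ALDOA, GAPDH, ENO1 and PKM lie near 1773 FPKM or above in both groups.

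The listed members of the opening steps of glycolysis, HK2 and GPI, were nearly level between the groups. HK1 has no entry, so among the members the first step rests on HK2 alone, at percentile 17.8 of all entries in No-SCI. HK2, the hexokinase of muscle and of reactive or dividing cells, had 4.23 FPKM in No-SCI and 3.90 FPKM in SCI, a log2 ratio of −0.12. GPI, which turns glucose 6-phosphate into fructose 6-phosphate, had 41.4 and 45.2 FPKM, a log2 ratio of 0.13. The ratio of HK2 lies at percentile 49.9 of all entries and that of GPI at percentile 63.1.

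The phosphofructokinases, by contrast, were all lower in SCI. PFKM, the muscle-type subunit that brain also uses, had 73.5 FPKM in No-SCI and 21.1 FPKM in SCI, a log2 ratio of −1.80. PFKP, the platelet-type subunit, had 67.5 and 20.6 FPKM, a log2 ratio of −1.71. PFKL, the liver-type subunit and the least abundant of the 3, had 11.0 and 6.67 FPKM, a log2 ratio of −0.73. The summed FPKM of the 3 subunits was 152 in No-SCI and 48.3 in SCI. The ratio of PFKM lies at percentile 2.01 of all entries and that of PFKP at percentile 2.45.

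The enzymes that make the activator of phosphofructokinase showed the same direction. PFKFB3, the isoform with strong kinase activity, had 63.3 FPKM in No-SCI and 18.5 FPKM in SCI, a log2 ratio of −1.77. PFKFB2, the heart isoform, had 25.01 and 10.7 FPKM, a log2 ratio of −1.23. A related gene outside the 43, PFKFB4, had 35.8 and 20.1 FPKM, a log2 ratio of −0.83. Among the 5 phosphofructokinase and PFKFB members the median log2 ratio was −1.71, and 4 of them were at least 2-fold lower, beside 12.1% of all entries. This pool was not among the isozyme sets fixed in the plan. It holds the lowest ratios of the glycolysis chain and its regulators, so its share is a description only.

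Below phosphofructokinase the chain was highly abundant and nearly level between the groups. ENO1, the ubiquitous enolase, had 3846 and 3608 FPKM and ranked 29 and 33 among all entries. GAPDH, glyceraldehyde-3-phosphate dehydrogenase, had 2853 and 2643 FPKM. ALDOA, the ubiquitous aldolase, had 2615 and 2600 FPKM, and PKM, pyruvate kinase, 1777 and 1773 FPKM. The log2 ratios of ENO1, GAPDH, ALDOA and PKM were −0.09, −0.11, −0.0081 and −0.0033, a fold of 1.08 at most. ENO2, the neuronal enolase, had 78.9 and 91.1 FPKM, a log2 ratio of 0.21.

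The middle steps were somewhat lower. TPI1, triose phosphate isomerase, had 551 and 406 FPKM, PGK1, phosphoglycerate kinase, 402 and 296 FPKM, and PGAM1, phosphoglycerate mutase, 433 and 351 FPKM. Their log2 ratios were −0.44, −0.44 and −0.30, inside the range of the middle 50% of all entries (−0.61 to 0.37). Over the 8 listed genes from aldolase to pyruvate kinase the ratios ran from −0.44 to 0.21. Processed copies of GAPDH and ENO1 have entries of their own, GAPDH-PS2 with 347 FPKM and ENO1-PS1 with 146 FPKM in No-SCI, or 12.2% and 3.78% of the value of the gene itself. Reads of near-identical copies can be split between entries, so the levels of GAPDH and ENO1 are uncertain, to a degree that was not tested.

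**Figure D2:**
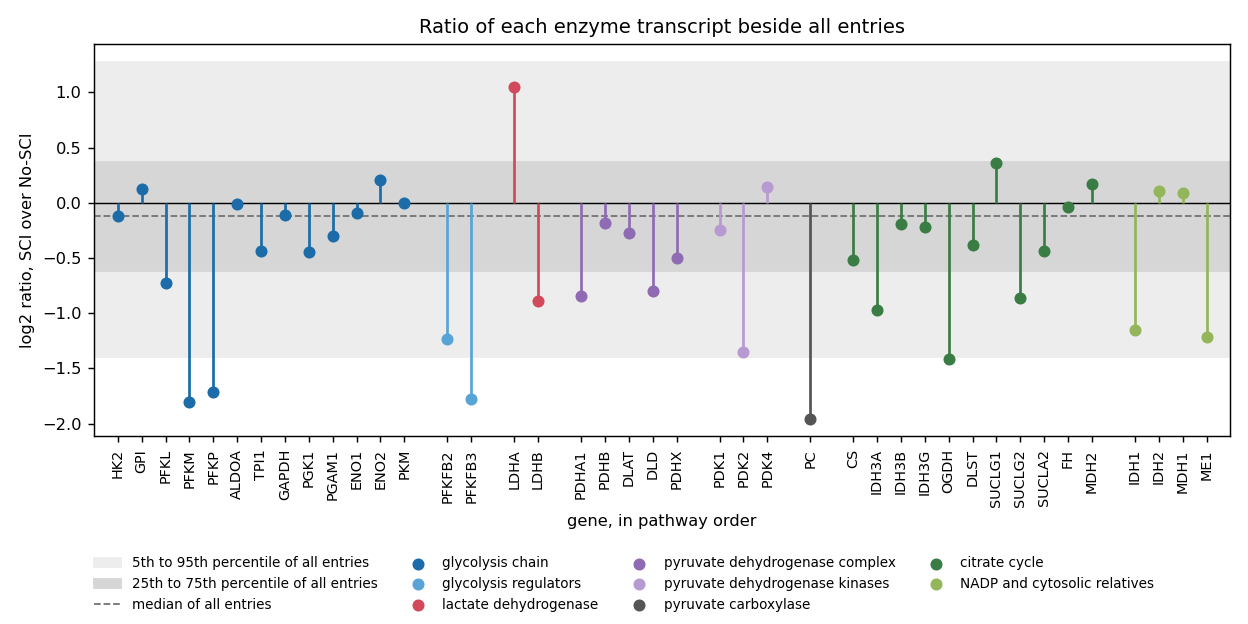
Log2 ratio of SCI to No-SCI for each of the 41 members in pathway order, coloured by role, over bands of the 5th to 95th and the 25th to 75th percentile of all 12771 entries. PC, PFKM, PFKFB3, PFKP and OGDH fall below the wider band, and no member lies above it.

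The lactate dehydrogenase subunits went in opposite directions. LDHA, the subunit that is best known for making lactate from pyruvate, had 841 FPKM in No-SCI and 1745 FPKM in SCI, a fold of 2.07. LDHB, the subunit of tissues that oxidize lactate, had 1267 and 684 FPKM, a log2 ratio of −0.89. The share of LDHA in the summed FPKM of both subunits was 39.9% in No-SCI and 71.8% in SCI. The ratio of LDHA to LDHB went from 0.664 to 2.55, a 3.84-fold difference that no scaling of the libraries can alter. The sum of both subunits was 2108 FPKM in No-SCI and 2428 FPKM in SCI. LDHA ranked 200 among all entries in No-SCI and 87 in SCI, and LDHB 130 and 253.

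Opposite directions were also seen in the transporters that carry lactate across the plasma membrane, taken from a list of 13 transport genes of which 11 have an entry. SLC16A3, the transporter of cells that export lactate, had 6.57 FPKM in No-SCI and 30.7 FPKM in SCI, a log2 ratio of 2.22. SLC16A1, the transporter of oligodendrocytes and endothelium, had 23.2 and 8.998 FPKM, a log2 ratio of −1.36. SLC16A7, the high-affinity transporter of neurons, had 10.3 and 6.66 FPKM, a log2 ratio of −0.64. BSG, which brings such transporters to the membrane, had 164 and 243 FPKM. The glucose transporters SLC2A1 and SLC2A3 were at 9.31 and 5.99 FPKM in No-SCI and at 12.2 and 5.33 FPKM in SCI. On the mitochondrial side, MPC1 had 499 and 308 FPKM and MPC2 17.5 and 22.5 FPKM. Over the transport list 6 genes were lower and 5 higher, 1 of them at least 2-fold in each direction, with a median log2 ratio of −0.17. Among all entries 56.3% were lower, 12.1% at least 2-fold lower and 7.96% at least 2-fold higher.

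The 250 bases before the start of the lactate dehydrogenase genes are shown because these subunits parted, and those of PFKFB3 and PFKP because they stand for the members that were lower together. They are RefSeq sequences on the GRCr8 build, 5′ to 3′ on the strand of the gene, whereas the expression values were made on rn6. Capitals mark ACGTG and GCGTG on either strand (CACGT and CACGC on the opposite strand), the core of the element that hypoxia-inducible factors are known to bind, with overlapping matches taken as 1 site. LDHA lies at chr1:106507842-106508091 (+ strand), LDHB at chr4:177177409-177177658 (− strand), PFKFB3 at chr17:71944683-71944932 (+ strand) and PFKP at chr17:68639563-68639812 (+ strand).
LDHA: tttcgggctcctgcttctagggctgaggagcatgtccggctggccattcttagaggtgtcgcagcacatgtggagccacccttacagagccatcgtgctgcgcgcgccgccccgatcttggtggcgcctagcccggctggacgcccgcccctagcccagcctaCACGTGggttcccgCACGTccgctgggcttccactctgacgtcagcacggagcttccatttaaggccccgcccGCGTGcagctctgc
LDHB: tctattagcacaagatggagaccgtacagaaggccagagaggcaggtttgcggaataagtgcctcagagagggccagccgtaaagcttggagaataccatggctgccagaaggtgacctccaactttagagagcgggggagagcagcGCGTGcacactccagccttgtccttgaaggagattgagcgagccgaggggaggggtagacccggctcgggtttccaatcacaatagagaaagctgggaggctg
PFKFB3: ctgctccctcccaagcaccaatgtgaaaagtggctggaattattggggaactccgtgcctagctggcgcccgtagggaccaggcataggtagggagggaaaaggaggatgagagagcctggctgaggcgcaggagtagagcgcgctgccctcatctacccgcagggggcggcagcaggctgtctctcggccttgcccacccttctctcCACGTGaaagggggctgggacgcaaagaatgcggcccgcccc
PFKP: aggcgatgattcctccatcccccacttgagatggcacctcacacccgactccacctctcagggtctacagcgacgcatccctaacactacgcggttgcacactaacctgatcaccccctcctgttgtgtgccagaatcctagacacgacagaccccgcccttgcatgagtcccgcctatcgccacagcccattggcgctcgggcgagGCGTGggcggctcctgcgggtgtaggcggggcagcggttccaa
The window of LDHA holds 3 sites, which begin 87, 73 and 14 bases before the start, and those of LDHB, PFKFB3 and PFKP hold 1 each. Such a short word is common. A site was found in 22 of the 40 members with a promoter in the RefSeq table (55.0%), in 55.2% of the 9762 promoters whose gene is in the expression table, and in 37.9% of all 27457 promoters of the same length. At least 3 sites were found in 6 members, and in 8.64% of the promoters of genes in the expression table and 4.61% of all. These members are LDHA, ALDOC, GAPDH, DLAT, PDHA1 and PDHB. The log2 ratio of LDHA was 1.05. Those of GAPDH, DLAT, PDHA1 and PDHB were −0.11, −0.27, −0.84 and −0.18, where the median of all entries was −0.12. ALDOC has no expression entry. PGK1, PC and IDH3A are not in the promoter table. Of the members at least 2-fold lower in SCI, PFKM, PFKP, PFKFB3, OGDH, PDK2 and ME1 hold a site, and IDH1 and PFKFB2 hold none. A match is a run of letters and was not tested as a binding site.

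The listed subunits of the pyruvate dehydrogenase complex were all lower in SCI, to differing degrees. PDHA1, the catalytic subunit of pyruvate dehydrogenase, had 146 FPKM in No-SCI and 81.3 FPKM in SCI, a log2 ratio of −0.84. DLD, the dihydrolipoamide dehydrogenase that the complex shares with 2-oxoglutarate dehydrogenase, had 85.3 and 48.9 FPKM, a log2 ratio of −0.80. PDHX, which anchors DLD in the complex, had 17.4 and 12.3 FPKM, and DLAT, the acetyltransferase core, 6.75 and 5.60 FPKM. PDHB, the partner of PDHA1 in the same heterotetramer, had 49.7 and 43.9 FPKM, a log2 ratio of −0.18. None of the 5 was 2-fold lower, and their median log2 ratio was −0.50. Among all entries 56.3% were lower, and 12.1% at least 2-fold lower.

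The kinases that switch the complex off differed among themselves. PDK2 had 24.2 FPKM in No-SCI and 9.49 FPKM in SCI, a log2 ratio of −1.35. PDK1, a known target of hypoxia-inducible factor, had 56.9 and 47.9 FPKM, a log2 ratio of −0.25, and PDK4, the kinase of fasting and fat oxidation, 4.81 and 5.31 FPKM. PDK2 held 28.2% of the summed FPKM of these 3 kinases in No-SCI and 15.1% in SCI. PDK3, a kinase outside the 43 that this share leaves out, had 16.5 and 19.9 FPKM, a log2 ratio of 0.27. The phosphatases that switch the complex on again, PDP1 and PDP2, had log2 ratios of −0.49 and −1.14, and PDPR, the regulatory subunit of the phosphatase, −1.47.

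Pyruvate carboxylase had the lowest ratio of all members. PC had 228 FPKM in No-SCI and 58.8 FPKM in SCI, 3.87-fold lower, a log2 ratio of −1.95 at percentile 1.34 of all entries. PC went from rank 902 to rank 2855. On a list of 16 astrocyte markers, 12 of them with an entry, the median log2 ratio was −1.06, with 10 genes lower and 7 at least 2-fold lower. Among all entries 56.3% were lower and 12.1% at least 2-fold lower. The summed level of the listed astrocyte markers went from 24940 to 20986 FPKM. The most abundant of them differed in direction. APOE had 10448 and 11804 FPKM, NDRG2 8001 and 3228 FPKM, and GLUL 5858 and 5624 FPKM. The defining markers GFAP, AQP4, S100B and SLC1A3 have no entry. The part of these markers in the value of PC was not tested.

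Within the citrate cycle, OGDH stood apart from the rest. OGDH, the catalytic subunit of 2-oxoglutarate dehydrogenase, had 252 FPKM in No-SCI, the highest of the cycle, and 94.5 FPKM in SCI, a log2 ratio of −1.41. DLST, the succinyltransferase of the same complex, had 155 and 119 FPKM, a log2 ratio of −0.38. OGDHL, a relative of OGDH that is outside the 43, had 11.5 and 4.39 FPKM, a log2 ratio of −1.39.

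The isocitrate dehydrogenase that makes NADH is built from 3 subunits, and its catalytic one was the lowest in ratio. IDH3A had 105 FPKM in No-SCI and 53.6 FPKM in SCI, a log2 ratio of −0.97. The regulatory subunits IDH3B, with 67.7 and 59.2 FPKM, and IDH3G, with 111 and 96.0 FPKM, had log2 ratios of −0.19 and −0.22. The ratio of IDH3A to IDH3B was 1.56 in No-SCI and 0.907 in SCI.

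Succinyl-CoA ligase showed a similar spread. Its GDP-forming subunit SUCLG2 had 98.7 FPKM in No-SCI and 54.3 FPKM in SCI, a log2 ratio of −0.86. The ATP-forming subunit SUCLA2, known to prevail in neurons, had 34.1 and 25.2 FPKM, a log2 ratio of −0.44. The common subunit SUCLG1 was higher, with 49.4 and 63.5 FPKM, a log2 ratio of 0.36 that is the highest of the cycle.

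The remaining enzymes of the cycle differed among themselves. CS, citrate synthase, had 104 FPKM in No-SCI and 72.3 FPKM in SCI, a log2 ratio of −0.52. FH, fumarase, had 17.2 and 16.7 FPKM, and MDH2, the mitochondrial malate dehydrogenase, 119 and 135 FPKM, with log2 ratios of −0.04 and 0.17. Of the cycle genes outside the 43, SDHA, the flavoprotein of succinate dehydrogenase, had a log2 ratio of −0.75, while SDHB, SDHC and SDHD had 0.09, −0.30 and −0.01. Of the 24 listed genes on a list of 26 other citrate cycle and pyruvate genes, 18 were lower and 6 higher, with a median of −0.45. At least 2-fold lower were 4 of them. Among all entries 56.3% were lower and 12.1% at least 2-fold lower.

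Of the enzymes beside the cycle, those that make NADPH in the cytosol were lower. ME1, cytosolic malic enzyme, had 53.8 FPKM in No-SCI and 23.2 FPKM in SCI, a log2 ratio of −1.21. IDH1, cytosolic isocitrate dehydrogenase, had 195 and 87.8 FPKM, a log2 ratio of −1.15. Its mitochondrial counterpart IDH2 had 34.2 and 36.8 FPKM, a log2 ratio of 0.11, so the ratio of IDH1 to IDH2 went from 5.71 to 2.39. MDH1, the cytosolic malate dehydrogenase of the malate-aspartate shuttle, had 260 and 277 FPKM, a log2 ratio of 0.09.

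**Figure D3:**
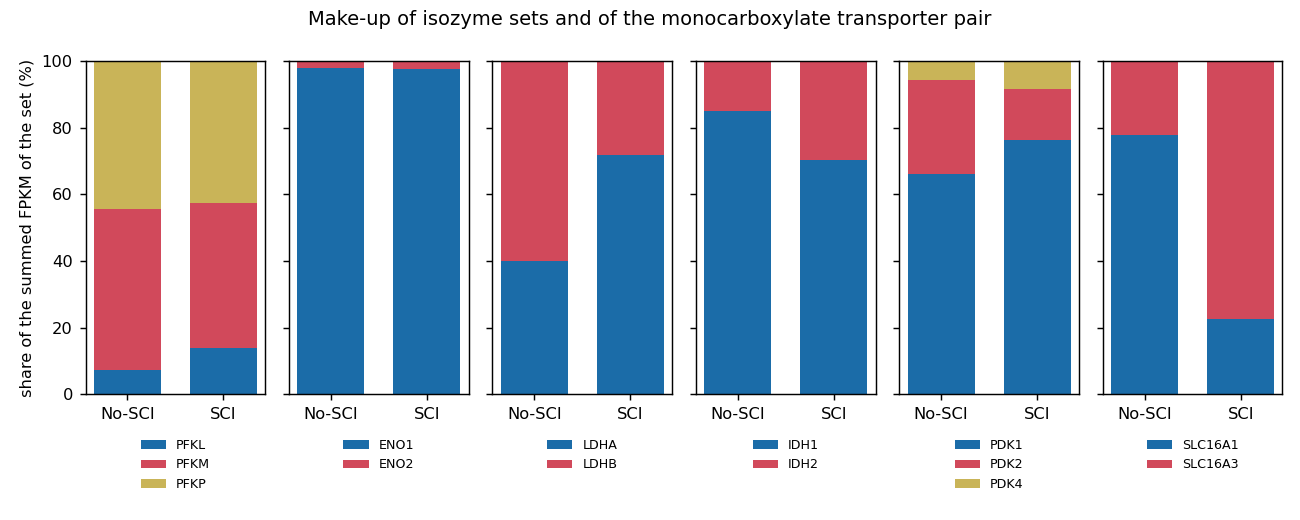
Share (%) of each gene in the summed FPKM of its isozyme set, or of the lactate transporter pair, in No-SCI and SCI. LDHA goes from 39.9% to 71.8% and SLC16A3 from 22.1% to 77.3%, whereas the make-up of the enolases differs by under 1 percentage point.

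Set against each other, glycolysis and the citrate cycle did not separate clearly. The median log2 ratio was −0.12 for the glycolysis chain (11 of 13 lower, 2 at least 2-fold) and −0.38 for the citrate cycle (9 of 11 lower, 1 at least 2-fold), a difference of −0.27. The shares at least 2-fold lower, 15.4% and 9.09%, lie near the 12.1% of all entries, of which 56.3% were lower by any amount. The median of the glycolysis chain equals that of all entries to 2 decimals. The means of the pathways were −0.42 and −0.41, since PFKM and PFKP pull down the mean of glycolysis, and their difference of 0.0081 has the opposite sign. The difference was −0.11 when the regulators and lactate dehydrogenases were added to glycolysis and the remaining members to the cycle. It was 0.25 when members whose values carry more than 6 digits were left out, which left 10 and 6 genes. In sums of FPKM, which the abundant genes dominate, glycolysis had 12753 and 11866, whereas the citrate cycle had 1114 and 789, with log2 ratios of −0.10 and −0.50.

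Related pathways showed different patterns. For comparison, 56.3% of all entries were lower, 12.1% at least 2-fold lower and 7.96% at least 2-fold higher. On the glycogen list all 11 listed of 12 genes were lower, 7 of them at least 2-fold, with a median log2 ratio of −1.13. PYGM, the muscle glycogen phosphorylase that astrocytes also use, had 52.5 and 18.3 FPKM, PYGB, the brain form, 6.65 and 2.31 FPKM, and GYS1, glycogen synthase, 6.99 and 3.01 FPKM. On the pentose phosphate list, with 8 of 9 genes listed, 5 were higher and 3 lower, 3 of them at least 2-fold higher, and the median was 0.55. PGLS, the lactonase of that pathway, had 22.1 and 78.1 FPKM, a log2 ratio of 1.82. The list of other glycolysis genes, 12 of 21 listed, had 3 genes at least 2-fold lower and 1 higher and a median of −0.60.

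Hypoxia-inducible factors are known to drive LDHA, PFKFB3 and PDK1. HIF1A had 201 FPKM in No-SCI and 84.2 FPKM in SCI, and EPAS1 501 and 166 FPKM, log2 ratios of −1.25 and −1.60. ARNT, their common partner subunit, had 2.07 and 2.28 FPKM, a log2 ratio of 0.14. Of the 22 listed genes on a list of 24 that holds the factors, their regulators and known targets, 15 were lower and 7 higher, with 5 at least 2-fold lower and 3 at least 2-fold higher. The higher ones were SLC16A3, ANKRD37 (2.68 and 7.68 FPKM) and ADM (2.15 and 5.52 FPKM), and the lower ones HIF1A, EPAS1, EGLN3, DDIT4 and VEGFA. The median log2 ratio of the 22 listed genes was −0.37, near that of the 41 members. Among all entries 56.3% were lower, 12.1% at least 2-fold lower and 7.96% at least 2-fold higher.

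**Figure D4:**
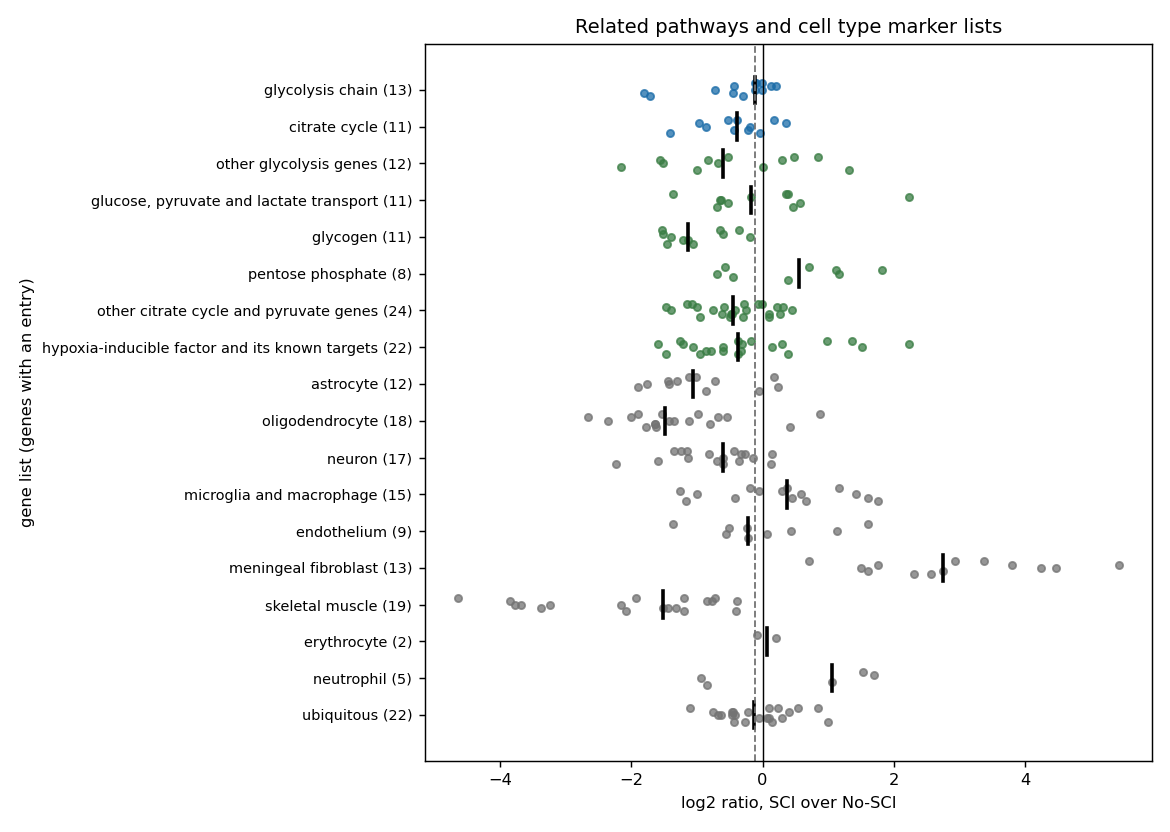
Log2 ratio of SCI to No-SCI for each gene with an entry (points) and the median (black bar) of the glycolysis chain, the citrate cycle, related pathways and cell type marker lists, with the median of all entries as a dashed line. Oligodendrocyte and skeletal muscle markers lie to the left at medians of −1.48 and −1.51, meningeal fibroblast markers to the right at 2.75, and the glycolysis chain sits on the dashed line.

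Markers of several cell types differed between the groups in the same libraries. For comparison, 56.3% of all entries were lower by any amount, 12.1% at least 2-fold lower and 7.96% at least 2-fold higher. Of 20 oligodendrocyte markers 18 are listed, 16 of them lower, and their sum was 91313 FPKM in No-SCI and 49407 FPKM in SCI. MBP has no entry. Of 24 skeletal muscle genes 19 are listed and all were lower, with sums of 553 and 93.4 FPKM. Without the muscle enzymes PGAM2 and ENO3 the sums were 536 and 88.0 FPKM. MYH1 and MYH2 carry the same values, 2.71 and 1.18 FPKM, so the 19 may not all be separate measurements. MYH4, with 1.85 and 1.09 FPKM, lies near the lowest value of 1. MB and TNNT3 had 36.5 and 180 FPKM in No-SCI and 1.47 and 14.1 FPKM in SCI. Of the enzymes best known from muscle, PFKM, PYGM, PGAM2 and ENO3 were at least 2-fold lower. HK2 and ALDOA had log2 ratios of −0.12 and −0.0081, and LDHA was higher. All 13 meningeal fibroblast markers were higher, 12 of them at least 2-fold, with sums of 90.2 and 1053 FPKM. That list, like the others, was chosen with earlier results of these data known, so its direction is no independent result. Of 16 microglia and macrophage markers 15 are listed, 9 of them higher and 6 lower, with sums of 1482 and 2122 FPKM. LYZ2 alone had 201 and 611 FPKM. At least 2-fold higher were 4 of them, and at least 2-fold lower were CX3CR1, CSF1R and P2RY12. Of 10 neutrophil markers 5 are listed, 3 higher and 2 lower, with sums of 104 and 174 FPKM. MPO and ELANE have no entry. The part of these cells in the values of the enzymes was not tested.

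On the neuronal list (17 of 19 listed) 15 genes were lower, 6 of them at least 2-fold, beside 56.3% and 12.1% of all entries. Its median log2 ratio was −0.60, with sums of 2363 and 2010 FPKM. NEFL had 78.1 FPKM in No-SCI and 26.04 FPKM in SCI, a log2 ratio of −1.58. The endothelial list (9 of 12 listed, PECAM1 without an entry) had a median of −0.21 and sums of 60.1 and 84.7 FPKM. HBB, the most abundant of the 2 listed of 9 erythrocyte genes, had 490 and 464 FPKM. The ubiquitous list, 22 of 24 genes listed, had a median log2 ratio of −0.14. PGK1 and SDHA also stand on that list.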

How the data were processed

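RNA of the acellular supernatant was measured in rats with laminectomy alone (No-SCI) or with contusion (SCI). The authors downsampled reads, aligned them to rn6 with STAR 2.5.4b and the Ensembl annotation, and ran Cuffdiff of cufflinks 1.3.0 after upper quartile normalization. The deposited table used here holds 1 FPKM value of the authors per gene and group, and values of single libraries were not analysed here. The filter behind the entries is not given in the sources used here. The deposited p-values, q-values, fold changes and log2 fold changes hold the authors' own comparison and were not used. Columns were assigned to groups by the names in the table, and every measurement column used has one.

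Ratios are log2(SCI/No-SCI) of the values as given, with no pseudocount added here. Ranks and percentiles are over all 12771 entries, and for 13 symbols listed 2 times, none of them a member, the entry of higher mean was kept. Counts use a 2-fold minimum. The members and lists were chosen with earlier results of these data known. All members may be named, and from the other lists genes at least 2-fold different, the 3 most abundant in No-SCI and, chosen after their values were seen, related isoforms, subunits and absent markers. All 43 symbols match the GRCr8 RefSeq table, which was used for names and, through its promoter table, for sequences. Alternatives were pseudocounts of 1 and 0.1, 3 scalings, a mean of at least 10 FPKM, minima of 1.5-fold and 1.3-fold, means, broader lists, the smaller entry of a repeated symbol and absent members at 0. Subtracting 1 from every value, because the lowest value is 1, and leaving out values of over 6 digits were added after the data were seen. The steps were tested on simulated data. Python 3.11.15, numpy 2.4.6, pandas 2.3.3 and matplotlib 3.10.9 were used.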

Additional observations from a re-analysis of the deposited data

How the results depend on the processing

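No alternative turned the direction of a member that differed by at least 2-fold, and the pseudocounts, the scalings, the filter of at least 10 FPKM and the subtraction of 1 left the counts of 9 lower and 1 higher member as they were. Of 246 recomputed log2 ratios of members, 82 moved by 0.1 or more. Centring the median of all entries brought the glycolysis chain to a median of −0.0012 and the citrate cycle to −0.27, and the same upper quartile to −0.015 and −0.28. Under the same upper quartile ALDOA, ENO1, PKM and FH turned to slightly higher, and under the same total ALDOA, PKM and FH. Without values of over 6 digits the medians were −0.37 and −0.12, and their difference 0.25. Means gave −0.42 for the glycolysis chain and a difference of 0.0081, and the broad lists −0.30 and a difference of −0.11. The count of lower members was 15 at 1.5-fold and 21 at 1.3-fold. The No-SCI level of the glycolysis chain was 78.9 FPKM with absent members at 0 and 225 FPKM as the mean of log2 values, and the level of the citrate cycle was 63.5 FPKM in SCI. None of the 24 isozyme ratios, recomputed only with a pseudocount of 1, moved by 1.5 times. Subtracting 1 and leaving out values of over 6 digits were not applied to these ratios. The cause of these shifts was not tested. No paired analysis was possible because values of single libraries were not analysed here, and for the same reason no library could be left out. The table used gives no read counts, so no limit of detection is given for the genes without an entry.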

Other observations

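Cuffdiff prints 6 significant digits, yet 7484 of the 12771 entries (58.6%) and 17 of the 41 members carry a value of more. The median log2 ratio of these entries was −0.22, and that of the other entries 0.0068. Among the members the medians were −0.52 and −0.23. LDHA, LDHB, PC, OGDH, IDH3A and PFKFB3 are among the 17, and PFKM and PFKP are not. The origin of the additional digits was not tested.

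BPGM, which makes the red cell regulator bisphosphoglycerate, had 1488 FPKM in No-SCI and 748 FPKM in SCI. The acylphosphatase genes ACYP1 and ACYP2 stood at a similar level to each other in No-SCI, at 369 and 358 FPKM, and parted in SCI, at 515 and 122 FPKM.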
